A study of Mus musculus with 2 samples.

Results

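Neutrophils of the MC38 tumor were examined in single-cell RNA sequencing of sorted CD45+ cells, with 1 library from untreated tumors (Control) and 1 from irradiated tumors (IR). They were selected on their own transcripts. A barcode was kept with at least 500 UMIs (unique molecular identifiers, each a counted RNA molecule) and at most 25% mitochondrial UMIs. It was called a neutrophil if S100a8 and S100a9 made up at least 2% of its UMIs, if Csf3r, Cxcr2, Retnlg and G0s2 summed to at least 3 UMIs, if C1qa, C1qb and C1qc summed to at most 2 UMIs, and if Cd3d and Cd3g were at 0. The rule found 143 neutrophils among 8622 barcodes, of which 23 of 5043 lay in Control and 120 of 3579 in IR.

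MC38 is a mouse colon carcinoma line. The tumors grew in mice labelled WT. Those of the IR library had received a single dose of 20 Gy and were taken 4 days later, and those of the Control library were not irradiated. The study's methods describe young adult mice of both sexes and several tumors pooled into each library, so that no library stands for 1 animal and there was no replicate of either condition. The sample label gives the cells as CD45+CD11b+Ly6Chi, whereas the sort is described as CD45+, and T cells, NK cells and neutrophils were present in both libraries. Intervals given with single values cover counting error only, and no p-value could be obtained.

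Neutrophils are short-lived granulocytes that leave the bone marrow with their granule proteins already made, reach inflamed tissue along gradients of CXCR2 ligands, and there can turn on genes for chemokines and cytokines. Granule transcripts mark cells that left the marrow recently, and interferons induce a separate set of antiviral genes through transcription factors such as the IRF family. S100A8 and S100A9 form the calcium-binding complex calprotectin, the most abundant protein of the neutrophil cytosol.

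The irradiated tumor library held a larger share of neutrophils than the Control library. They made up 0.456% of Control barcodes (95% exact binomial interval 0.289 to 0.684) and 3.35% of IR barcodes (2.79 to 4.0), a ratio of 7.35 (4.72 to 11.5). The ratio was 6.07 without the 21 IR neutrophils that held monocyte RNA, and 4.79 when every barcode with such RNA was also left out of the total. The share moves with the other cells of each library as well, since barcodes in a macrophage gate (at least 20 UMIs of the C1q genes) numbered 1503 in Control and 405 in IR. The median neutrophil had 1664 UMIs and 606 genes in Control and 2541 UMIs and 723.5 genes in IR, against medians of 6777 and 7883 UMIs over all barcodes kept. The sums over all neutrophils were 37407 UMIs in Control and 355697 in IR. The IR sum was the deeper of the pair. CPM is a gene's part of the summed UMIs scaled to a common total. For a gene without a UMI in Control, at-least folds were taken against 80.2 CPM, the level of 3 UMIs. The 95% counting interval of such a gene reached higher, to 98.6 CPM.

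The genes that selected the cells are given as description. S100a8 and S100a9 took 2.19 to 21.9% of the UMIs of a Control neutrophil, with a median of 8.20%, and 2.03 to 24.5% in IR, with a median of 6.27%. Close to the limit, 1 Control and 12 IR neutrophils lay between 2 and 2.5%, while 2 Control and 19 IR barcodes that met every other limit lay between 1 and 2%. Csf3r, the receptor of the granulocyte growth factor G-CSF, stood at 1711 CPM in the Control cells against 672 CPM in the IR cells. Cxcr2, the receptor that guides neutrophils to CXCL chemokines, had 855 and 441 CPM. Retnlg, a resistin-like secreted protein of young neutrophils, had 4705 and 1653 CPM, and G0s2, an inhibitor of lipolysis, 6576 and 7478 CPM. A single Control cell held 74 of the 176 Retnlg UMIs of Control, and without that cell Retnlg stood at 2895 CPM in Control.

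Genes outside the rule placed the cells with mature neutrophils. Hdc, the histamine-forming enzyme of granulocytes, was at 2834 CPM in Control neutrophils and 2949 CPM in those of IR, against 63.2 CPM in IR T cells (358 barcodes with at least 3 UMIs of Cd3d and Cd3g, median 8042 UMIs). Il1r2, the decoy receptor of interleukin-1, had 3208 and 2761 CPM. Trem1, an activating receptor of myeloid cells, had 1256 and 1223 CPM, and the gelatinase Mmp9 775 and 821 CPM. Ly6g was sparse, with 3 UMIs in Control and 10 in IR. Cxcr1, a further listed marker, was sparse too, with 0 UMIs in Control and 14.1 CPM in IR. The primary granule genes of marrow progenitors summed to 0 and 2 UMIs, with Elane, Ctsg and Ms4a3 at 0, and markers of B cells and of mast cells and basophils were at 0 in both. Eosinophil markers summed to 0 and 4 UMIs, T cell markers to 1 and 7, NK cell markers to 1 and 14 and dendritic cell markers to 0 and 2.

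Cycling genes summed to 5 and 10 UMIs, stromal and tumor cell markers to 0 and 1, and erythrocyte and platelet markers to 2 and 14. Macrophage markers, of which the rule limits the C1q genes, summed to 36 UMIs in Control (962 CPM, in 16 of 23 cells) and 155 UMIs in IR (436 CPM, in 44 of 120 cells), against 6476 and 2472 CPM in empty droplets (barcodes of 1 to 50 UMIs).

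Monocyte transcripts went the other way, from 241 CPM in Control to 1299 CPM in IR over the 9 markers. Of the 120 IR neutrophils, 21 held at least 3 UMIs of Ly6c2, Ccr2, Csf1r, Fn1, Vcan and F13a1, with up to 46 in 1 cell, while no Control neutrophil held more than 1. These 21 cells carried 33.2% of all IR neutrophil UMIs. What these cells are was not tested. A doublet caller marked 0 Control barcodes and 1 IR barcode, which is too few for it to have worked, and the 6% of barcodes with the highest doublet scores included 0 and 1 of the neutrophils. The results below are therefore given with and without these 21 cells where they differ.

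IR neutrophils had higher levels of interferon-stimulated genes and of inflammatory chemokines and cytokines than Control neutrophils. Several granule transcripts were lower, by an amount that depended on the scaling and in part on single Control cells. A gene was measured if it had at least 20 UMIs over both libraries and 100 CPM in one, which 1352 genes did, and it was counted as past 2-fold on log2(CPM + 50). Of the measured genes, 142 (10.5%) were at least 2-fold higher in IR and 110 (8.14%) at least 2-fold lower, with a median log2 difference of -0.17. Counting error alone is large at the depth of the Control sum: of these 252 genes, 101 had a 95% counting interval of the fold that lay above 1 and 106 one that lay below 1. The split depended on the scaling, since TMM factors shifted all log2 ratios by 0.55, gave a median of 0.41 and left 298 genes higher and 25 lower. Directions below are read against that shift, and a gene that passed the limit of 100 CPM in IR alone could only lie higher there.

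Printed here are the promoter stretches of 2 interferon-stimulated genes and 2 chemokine genes that differed between the libraries (RefSeq, GRCm38.p6). They are shown as examples, and no cause of the differences was tested. Each run holds 200 bases before the transcription start, read 5′ to 3′ on the gene's strand, with matches in capitals. In Isg15 and Ifit1 the capitals mark the core of the interferon-stimulated response element (ISRE), which is GAAA, any 2 bases and GAAA again, on either strand and with overlapping matches merged, and in Cxcl2 and Cxcl3 they mark the NF-kB motif on either strand.
Isg15 (chr4:156200819-156201018, minus strand): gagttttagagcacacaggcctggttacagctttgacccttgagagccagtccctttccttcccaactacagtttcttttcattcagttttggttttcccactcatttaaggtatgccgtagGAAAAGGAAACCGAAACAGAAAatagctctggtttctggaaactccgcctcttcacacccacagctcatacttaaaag
Ifit1 (chr19:34640689-34640888, plus strand): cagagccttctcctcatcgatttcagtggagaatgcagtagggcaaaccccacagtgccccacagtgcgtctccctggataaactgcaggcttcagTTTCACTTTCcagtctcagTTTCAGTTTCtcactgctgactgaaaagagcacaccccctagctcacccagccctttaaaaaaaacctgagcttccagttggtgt
Cxcl2 (chr5:90903699-90903898, plus strand): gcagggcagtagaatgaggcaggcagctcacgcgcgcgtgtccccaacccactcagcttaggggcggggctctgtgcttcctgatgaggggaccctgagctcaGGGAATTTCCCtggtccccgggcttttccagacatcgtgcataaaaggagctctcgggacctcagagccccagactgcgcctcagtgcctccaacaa
Cxcl3 (chr5:90785901-90786100, plus strand): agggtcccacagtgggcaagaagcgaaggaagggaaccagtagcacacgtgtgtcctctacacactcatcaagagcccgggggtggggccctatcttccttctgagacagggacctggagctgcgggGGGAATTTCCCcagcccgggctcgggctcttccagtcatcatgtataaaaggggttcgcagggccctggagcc

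In windows of 250 bases before the start, the ISRE core was found in 936 of 27025 genes (3.46%), in 10 of the 20 interferon-stimulated genes with an entry (50%) and in 1 of 9 chemokine genes. The NF-kB motif was found in 8.23% of all genes, in 5 of the 9 chemokine genes and in 4 of 10 cytokine genes. It was also found in 6 of the 20 interferon-stimulated genes (30%), so the NF-kB motif did not separate the groups. The ISRE core was found in 0 of the 10 cytokine genes and in 0 of 15 genes of an NF-kB list. Of 9 genes in an interferon gamma list, 6 held the ISRE core and 2 the NF-kB motif. None of the 12 neutrophil marker genes with an entry held the ISRE core, and 1 held the NF-kB motif. The windows of Ccl3, Il1b and Tnf shown the same way held no NF-kB match in their 200 bases. A match is a run of letters and not a measured binding site.

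Among interferon-stimulated genes, 18 of the 23 measured were at least 2-fold higher in IR neutrophils and 0 lower, against 10.5% of all genes measured in the higher direction. Their median log2 difference was 1.34, and 16 of the 23 had a counting interval above 1. With each Control cell left out in turn, 17 of the 18 stayed past 2-fold in every case, all but Bst2. The summed level of the 25 genes was 4251 CPM in Control and 13006 CPM in IR, 3.06-fold higher (95% counting interval 2.61 to 3.61). In single cells they took 0 to 1.48% of UMIs in Control, with a median of 0.31%, and 0.05 to 5.33% in IR, with a median of 0.97%, so that the ranges overlapped and the upper part was held by IR cells.

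Ifit1, which binds viral RNA caps, had 0 UMIs in Control neutrophils and 219 in IR (616 CPM), at least 7.68-fold higher against the level of 3 UMIs. In IR T cells Ifit1 stood at 84.6 CPM and in empty droplets at 88.5 CPM, both below the neutrophils. Isg15, a ubiquitin-like modifier, rose from 45 to 1113 UMIs, or 1203 to 3129 CPM, a fold of 2.6 (1.93 to 3.59). Irf7, the factor that amplifies interferon production, had 3 and 212 UMIs, a ratio of 7.43 (2.51 to 36.3). Rsad2, the antiviral protein viperin, was 2.55-fold higher (1.62 to 4.28), Slfn1, a Schlafen gene of leukocytes, 3.75-fold (1.95 to 8.28) and Rtp4, an interferon-induced chaperone, 5.19-fold (2.36 to 14.3). Oasl2 was among those measured whose intervals held 1, with a fold of 1.13. Without the 21 cells holding monocyte RNA the log2 ratio of the summed list was 1.68 in place of 1.61.

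The same list was also higher in IR in the monocyte gate, from 2913 to 6418 CPM, and in empty droplets, from 1383 to 3797 CPM. Both stayed below the neutrophil level of their library. The GTPases that interferon gamma induces were mixed in neutrophils. Irgm1 was 5.21-fold (1.4 to 43.6), Ifi47 3.89-fold (1.49 to 14.5) and Gbp2 2.35-fold higher (1.36 to 4.47), while Gbp5 was at 0.666 (0.279 to 1.93). In all, 4 of the 7 measured genes of that list were at least 2-fold higher and 0 lower, beside 10.5% of all genes higher.

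**Figure D1:**
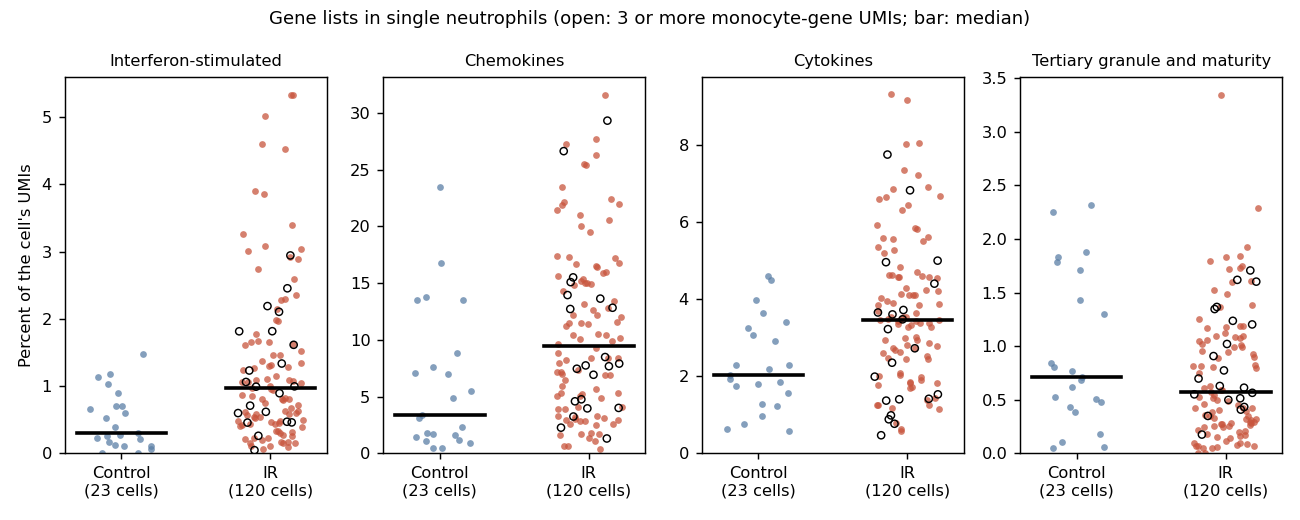
Percent of each neutrophil's UMIs in 4 gene lists (y axis), with 1 point per cell, 23 Control cells and 120 IR cells, bars at the medians and open symbols for the 21 IR cells with 3 or more UMIs of monocyte genes. The median was 0.31 in Control and 0.97% in IR for the interferon-stimulated list and 3.35 in Control and 9.47% in IR for chemokines, with overlapping ranges.

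Chemokine transcripts were abundant in the neutrophils of both libraries. The 14 genes summed to 61432 CPM in Control neutrophils and to 107313 CPM in IR, 1.75-fold higher (1.67 to 1.82). Of the 10 measured, 7 were at least 2-fold higher and 0 lower, beside 10.5% of all genes higher. The list was also higher in IR in the monocyte gate, from 5908 to 13272 CPM, a fold of 2.25. In empty droplets it went from 7842 to 12383 CPM. A single neutrophil gave 0.47 to 23.5% of its UMIs to these genes in Control and 0.36 to 31.6% in IR. Cxcl2, a ligand of CXCR2 and so of the neutrophils themselves, had 1479 UMIs (39538 CPM) in Control and 21210 UMIs (59629 CPM) in IR, a fold of 1.51 (1.43 to 1.59). Cxcl3, the neighbouring CXCR2 ligand on chromosome 5, rose from 3502 to 8150.2 CPM, 2.33-fold (1.95 to 2.79). Ccl3, an inflammatory CC chemokine, rose from 4384 to 14808 CPM, 3.38-fold (2.89 to 3.97), and Ccl4, its close relative, stood at 10586 and 18766 CPM, 1.77-fold (1.6 to 1.97). Single Control cells weighed on these folds, with 65.6% of the Cxcl3 UMIs and 42.7% of the Ccl3 UMIs of Control in 1 cell. Leaving out each Control cell in turn kept both past 2-fold, with log2 differences of 1.07 to 2.64 for Cxcl3 and 1.62 to 2.46 for Ccl3. Cxcl10, the interferon-induced CXCR3 ligand that attracts T cells, had 3 UMIs in Control and 344 in IR, a ratio of 12.1 (4.09 to 58.8).

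The monocyte attractants behaved otherwise once the 21 cells were left out. Ccl2 had 4 UMIs in Control and 207 in IR, with a log2 difference of 2.01 that turned to -0.27 without them. Ccl7 went from 2.15 to 0.32 on the same scale. Of the Ccl5 UMIs in IR, 59% came from 1 cell. The summed list without the 21 cells was higher still, with a log2 ratio of 0.98 against 0.80. Cxcl1 had 0 and 4 UMIs, all in 1 cell.

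Inflammatory cytokines were higher as well. The 12 genes summed to 22749.8 CPM in Control neutrophils and to 33883 CPM in IR, 1.49-fold higher (1.39 to 1.6). Of the 8 measured, 3 were at least 2-fold higher and 0 lower, beside 10.5% of all genes higher. The list was also higher in IR in the monocyte gate, from 3454 to 6099 CPM, a fold of 1.77. In empty droplets it went from 2241 to 3533 CPM. In neutrophils Tnf rose from 9 to 497 UMIs, or 241 to 1397 CPM, 5.81-fold (3.03 to 12.8). Il1a rose 4.37-fold (2.42 to 8.81), and Il1rn, which blocks the interleukin-1 receptor, 2.38-fold (1.83 to 3.16). Il1b, found in every neutrophil of both libraries, went from 15264 to 21878 CPM, 1.43-fold (1.32 to 1.56), whereas its decoy receptor Il1r2 stood at a fold of 0.861 (0.711 to 1.05). Il6 was present in 1 IR cell with 17 UMIs.

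F3, tissue factor, which starts blood clotting, had 0 UMIs in Control neutrophils and 147 in IR (413 CPM), at least 5.15-fold higher. Its level was 12.5 CPM in the IR monocyte gate and 5.79 CPM in IR T cells, and the log2 difference without the 21 cells was 3.27. Spp1, osteopontin, had 12 and 960 UMIs, a fold of 8.41 (4.79 to 16.3). The IR level of Spp1, 2699 CPM, lay near the 2138 CPM of empty droplets, and IR T cells stood at 1056 CPM. Ly6c2, a monocyte antigen, had a log2 difference of 2.41 that came to -0.00 without the 21 cells. Runx1, a transcription factor of blood cells, Rnf213, an interferon-responsive ubiquitin ligase, and Ifit3b had 0 UMIs in Control and 73, 72 and 72 in IR, at least 2.56-, 2.52- and 2.52-fold higher. These genes, with Ifit1, Cxcl10, Tnf and Irf7, were the 10 with the largest log2 differences upward.

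Several granule transcripts lay on the other side, with Control levels that rested in part on single cells. Lcn2, the iron-binding lipocalin of secondary granules, had 30 UMIs (802 CPM) in Control and 111 (312 CPM) in IR, a fold of 0.389 (0.258 to 0.604), and it was the only measured gene of the 7 in the secondary granule list. Pglyrp1, a peptidoglycan-binding granule protein, was at a fold of 0.402 (0.293 to 0.56), and Hp, haptoglobin, at 0.389 (0.273 to 0.567). Without the Control cell that held most of its UMIs, the log2 difference of Lcn2 went from -1.23 to -0.87 and that of Pglyrp1 from -1.24 to -0.75. Both were then short of 2-fold, while Hp stayed past it at -1.11. Set against the TMM shift of 0.55, Lcn2, Pglyrp1 and Hp stayed lower but all came short of 2-fold. Mmp9 and Mmp8, the metalloproteinases of tertiary and secondary granules, were at 1.06 (0.722 to 1.61) and 1.09 (0.44 to 3.51). Of the 9 measured genes of the tertiary granule and maturity list, 2 were at least 2-fold lower and 0 higher, beside 8.14% of all genes lower, and its sum stood at a log2 ratio of -0.14 (-0.31 to 0.02), which turned to 0.41 with TMM factors. Lyz2, lysozyme, was at a log2 difference of 0.82 and of -0.16 without the 21 cells.

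The lower genes by rank were Gadd45g, a stress-induced growth arrest gene, with 18 and 23 UMIs and a fold of 0.134 (0.0694 to 0.264), and Lrg1, a secreted granule glycoprotein, with 24 and 50 UMIs and a fold of 0.219 (0.132 to 0.373). Among those next in rank were Hdac4, Ccpg1, Cpeb2, Rassf3, Rhob, Sap18 and Ripor2, each with 8 to 21 UMIs in Control. The counting intervals of these genes lay below 1, but few cells carried the Control values. A single Control cell held 14 of the 18 UMIs of Gadd45g, and the largest count in 1 cell was 20 of 24 for Lrg1 and 15 of 21 for Rhob. Without the cell that held most of its UMIs, the log2 difference of Gadd45g went from -2.21 to -0.49, that of Lrg1 from -1.86 to 0.22 and that of Rhob from -1.6 to -0.10. Of the 10 lowest genes, 3 stayed past 2-fold whichever Control cell was left out (Hdac4, Cpeb2 and Ripor2). All 10 of the highest genes stayed too, but Ifit1, F3, Runx1, Rnf213 and Ifit3b had 0 UMIs in Control. Leaving out a Control cell could not change the Control counts of those genes. These counts therefore do not compare how far single cells carried each group, and IR cells were not left out in turn.

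The subunits of the NADPH oxidase, which makes the oxidative burst, summed to 3743 CPM in Control and 2615 CPM in IR, a fold of 0.699 (0.584 to 0.841). With TMM factors the log2 ratio of this list changed from -0.52 to 0.03. Adhesion and migration genes did not separate the libraries by their sum, 8234 and 8091 CPM, a fold of 0.983 (0.873 to 1.11). Among them Itgal, the LFA-1 integrin chain, was lower at 0.332 (0.174 to 0.675), and Cxcr4, which holds neutrophils in the marrow, had a fold of 0.707 (0.429 to 1.23). The log2 difference of Itgal was -1.27 and came to -0.98 without 1 Control cell.

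Glycolysis and hypoxia genes summed to 9062 and 13793 CPM, 1.52-fold higher in IR (1.36 to 1.7), with 3 of 13 measured at least 2-fold higher (10.5% of all genes were) and 0 lower. Those were Slc2a1, a glucose transporter, at 3.26 (1.08 to 16.1), Egln3, an oxygen sensor, at 3.23 (1.23 to 12.1) and Pfkp, a phosphofructokinase, with 1 and 81 UMIs. Of 16 measured genes listed for neutrophils that have settled in tumors, 2 were higher and 2 lower, near the 10.5% and 8.14% of all genes. The sum of this list, most of it the ferritin chain Fth1, was 52236 CPM in Control against 48716 CPM in IR. Its log2 ratio of -0.10 became 0.45 with TMM factors and lay between -0.21 and 0.05 with each Control cell left out in turn. Siglecf, an antigen of such cells, had 0 and 3 UMIs, and Vegfa, the vessel growth factor, was at a fold of 0.421 (0.24 to 0.78). A single Control cell held 7 of its 16 Control UMIs, and the log2 difference went from -1.06 to -0.38 without it.

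Genes tied to suppression of T cells summed to 6629.8 and 7703 CPM, a fold of 1.16 (1.02 to 1.33). Beside 10.5% of all genes, 1 of 8 measured was at least 2-fold higher. That gene, Arg1 (arginase), had 2 and 86 UMIs, with 66.3% of the IR UMIs in 1 cell, and its log2 difference went from 1.5 to -0.17 without the 21 cells. Ptgs2, cyclooxygenase-2, was at 1.38 (1.09 to 1.78) and Cd274, PD-L1, at 1.04 (0.671 to 1.7). NF-kB pathway genes had 1 of 14 past 2-fold in each direction, beside 10.5% of all genes higher and 8.14% lower. Those were Sod2 (mitochondrial superoxide dismutase) at 4.39 (1.68 to 16.3) and Bcl3 at 0.223 (0.0914 to 0.598). Bcl3 fell short of 2-fold without 1 Control cell (log2 difference -0.96), and the inhibitor Nfkbia was at 1.73 (1.44 to 2.1). Surface receptors had 2 of 21 higher, close to the 10.5% of all genes, and 0 lower. Of these, the Fc receptor Fcgr4 was at 6.57 (1.78 to 54.9). Transcription factors of granulocytes and of the immediate early response had 0 of 17 past 2-fold. The m6A list summed to 16 and 89 UMIs, with 0 of 2 measured past 2-fold. Ythdf2, the m6A reader that the study concerns, had 0 UMIs in Control neutrophils and 3 in IR, too few to compare.

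The MHC class II list, with 1 of 4 measured genes past 2-fold, had a log2 ratio of 0.50 over all neutrophils and of -2.05 without those cells. MHC class I had 3 of 9 genes at least 2-fold higher and a log2 ratio of 0.51, where 10.5% of all genes were higher. Survival and apoptosis genes had 0 of 7 past 2-fold, and p53 targets 0 of 4 higher and 1 lower, beside 8.14% of all genes lower.

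**Figure D2:**
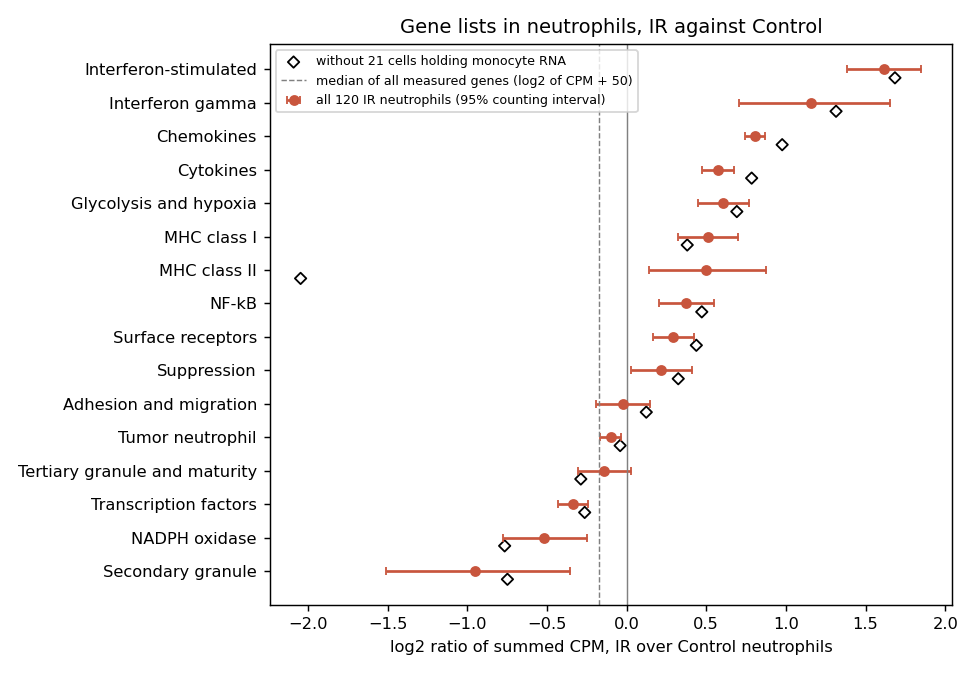
log2 ratio of the summed CPM of 16 gene lists, IR over Control neutrophils (x axis), with 95% counting intervals, and the same without the 21 cells that hold monocyte RNA (diamonds). The interferon-stimulated list lies highest at 1.61 and the secondary granule list lowest at -0.95, and the MHC class II list moves from 0.50 to -2.05 between the point and the diamond.

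The neutrophils were next set against barcodes of the same library in a monocyte gate (at least 3 UMIs of Ly6c2 and Ms4a4c and at least 2 of Csf1r and Ccr2, with S100a8 and S100a9 under 2%), of which there were 337 in Control and 684 in IR. In IR, 233 of 1632 genes (14.3%) were at least 2-fold higher in neutrophils and 407 (24.9%) at least 2-fold lower, with a median log2 difference of -0.41. The median barcode of the monocyte gate had 5824 UMIs in Control and 8476 in IR, against 1664 and 2541 in neutrophils. CPM therefore compares parts of a cell's UMIs and not UMIs per cell, which were not compared. On that scale inflammatory mediators were far higher in neutrophils. The chemokine list stood at 107313 CPM in IR neutrophils and 13272 CPM in IR monocytes, a log2 ratio of 3.02 (3.0 to 3.03), although members differed, with 5 of 13 measured members higher in neutrophils and 5 lower. The higher 5 were Ccl3, Ccl4, Ccl6, Cxcl2 and Cxcl3. The cytokine list had 7 of 8 members higher and 0 lower, with a log2 ratio of 2.47 (2.44 to 2.5).

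Cxcl2 stood at 59629 CPM in IR neutrophils, 5272 CPM in the monocyte gate and 3642 CPM in the macrophage gate, 11.3-fold above monocytes (11.1 to 11.5). In empty droplets Cxcl2 was at 3885 CPM and in T cells at 2456 CPM, near the monocyte and macrophage values. Ccl3 was 34.7-fold (33.1 to 36.3), Ccl4 21.5-fold (20.8 to 22.3) and Cxcl3 17.9-fold higher (17 to 18.9) in neutrophils than in monocytes. These are the first 10 genes with those of the selection rule left out, and the others were Cstdc4 and Stfa2l1, stefin-type protease inhibitors, Hdc, Mmp9, Acod1, which makes itaconate, at 20.8-fold (19.2 to 22.6), and Hcar2, a receptor for hydroxybutyrate and niacin, at 23-fold (20.5 to 25.8). All 10 were also at least 2-fold higher in Control neutrophils, as the choice required. Within IR the interferon-stimulated list took a larger part of the UMIs in neutrophils than in monocytes, by 1.02 on the log2 scale (0.97 to 1.06). Of its members, 8 of 23 were past 2-fold and 1 was lower. Monocytes were the deeper cells, so this is not a higher count per cell. In Control the same ratio was 0.55 (0.31 to 0.77).

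**Figure D3:**
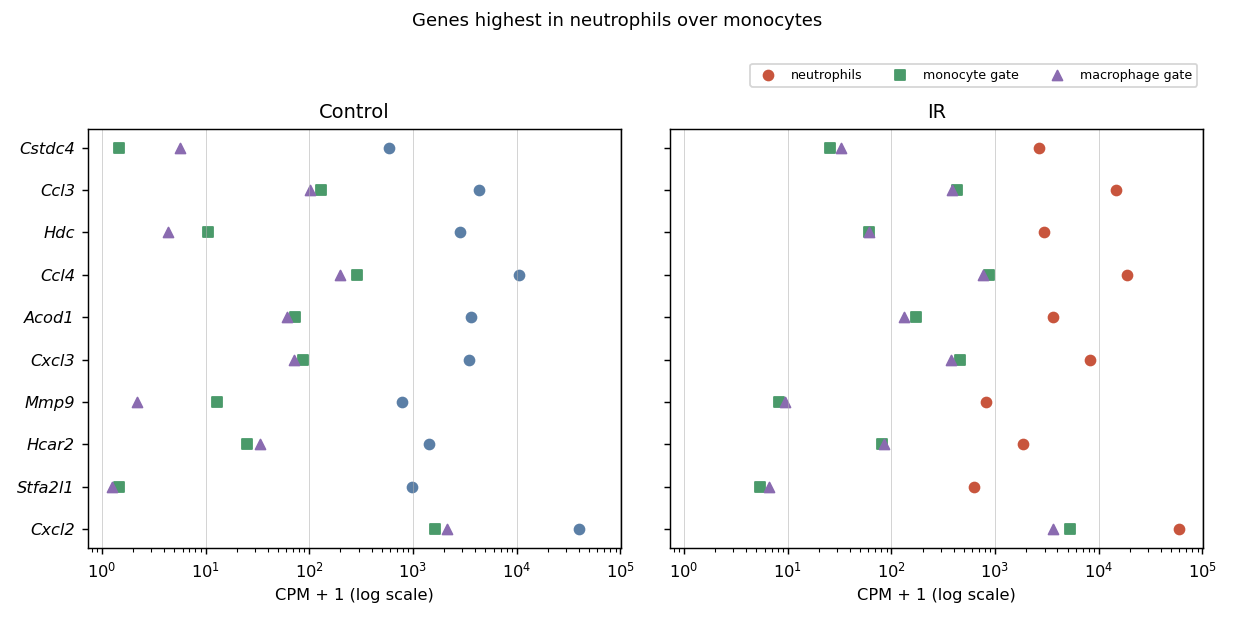
Level of the 10 genes highest in neutrophils over monocytes once the selection genes were left out, as CPM + 1 on a log axis, for neutrophils (circles, blue in Control and red in IR), the monocyte gate (squares) and the macrophage gate (triangles) of each library. Every circle lies to the right of the square and the triangle of its row, in IR by 11.3-fold for Cxcl2 and more for the others.

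Few as they were, neutrophils held a large part of some transcripts of the whole library. In IR, with 3.35% of barcodes, they held 41.3% of all Lcn2 UMIs, 36.3% of Mmp9, 25.7% of Fpr1 (a receptor for bacterial formyl peptides) and 22.3% of Hdc. Of the mediators they held 17.8% of Cxcl3, 17.2% of Ccl3, 13% of Ccl4, 12.9% of Cxcl2, 13.3% of Csf1, 8.88% of Il1b and 7.16% of Tnf. These shares include the 21 cells with monocyte RNA and would be smaller without them. Of the neutrophils' UMIs in IR, the other cells held 16388 of 21210 for Cxcl2 and 2207 of 2899 for Cxcl3. They held 3931 of 5267 for Ccl3 and 4829 of 6675 for Ccl4. In Control, with 0.456% of barcodes, the shares were 3.5% of Cxcl3, 1.49% of Ccl3, 1.94% of Cxcl2 and 1.41% of Il1b. Mmp9 was at 1.54% in Control, where other cells carried it. Cxcl10 and Spp1 were mostly held elsewhere, with 1.09 and 1.03% of their IR UMIs in neutrophils. A share of barcodes is not a share of UMIs, since neutrophils held 355697 of the 37971100 UMIs of all IR barcodes kept. The shares of Cxcl10 and Spp1 lay close to that part.

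**Figure D4:**
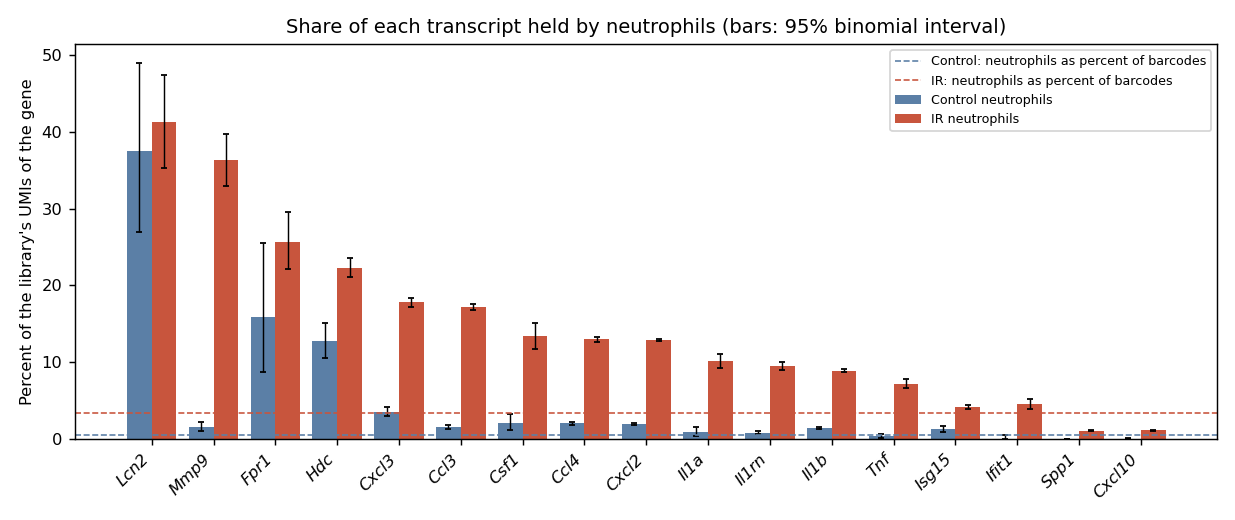
Percent of a library's UMIs of each gene that lay in neutrophils (y axis), for Control (blue) and IR (red), with 95% binomial intervals and dashed lines at the neutrophils' percent of barcodes, 0.456 and 3.35%. In IR, 15 of the 17 genes lie above the dashed line, and Spp1 and Cxcl10 lie below it. The line counts barcodes and not UMIs, of which neutrophils held a smaller part. The 21 IR cells with monocyte RNA are included.

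To describe states within the neutrophils, each cell was thinned to 500 UMIs, which no cell fell short of, and a range was set on the UMIs of each list. In the interferon range (at least 3 UMIs) were 9 of the 23 Control neutrophils, or 39.1% (95% interval by the exact method 19.7 to 61.5), while IR had 84 of its 120, or 70% (61.0 to 78.0). In the chemokine range (at least 10 UMIs) were 15 of the 23 in Control, or 65.2% (42.7 to 83.6), while IR had 111 of its 120, or 92.5% (86.2 to 96.5). Both at once were met by 4 Control cells (17.4%, 4.95 to 38.8) and 80 IR cells (66.7%, 57.5 to 75). The granule range (at least 5 UMIs of secondary and tertiary granule genes) held 10 Control cells (43.5%, 23.2 to 65.5) and 42 IR cells (35%, 26.5 to 44.2), and the tumor neutrophil range (at least 15 UMIs) 15 (65.2%) and 74 (61.7%), which overlapped. These are ranges of a score and not cell types, and 5 Control and 23 IR cells lay within 1 UMI of the interferon limit. Free RNA enters these counts in both libraries, and its part was not tested.

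Within the 120 IR cells, granule and chemokine genes were not exclusive, since 36 of the 42 cells in the granule range were also in the chemokine range and 20 lay in the interferon, chemokine and granule ranges at once. On UMIs of thinned cells Spearman's rho was -0.38 between granule and chemokine genes, -0.34 between granule and cytokine genes and -0.28 between granule and interferon genes. It was 0.43 between chemokine and cytokine genes and 0.17 between chemokine and interferon genes. The cells share 1 library and 1 fixed total of UMIs, so these are descriptions. Without the 21 cells the first was -0.39 and the fourth 0.38.

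The IR cells alone were also clustered, and the 5 clusters are described by their leading genes. Cluster 2 (35 cells) led with Lrg1, Retnlg, Pglyrp1 and Lcn2 and had 123991 CPM of S100a8 and S100a9 and 48265 CPM of chemokines. Cluster 4 (42 cells) led with the stefins Csta2, Csta3 and Cstdc4, with Il23a, an interleukin-23 subunit, F10, coagulation factor X, and the lipid droplet gene Hilpda, and had 164110 CPM of chemokines. Cluster 3 (22 cells) led with Ifi47, Irgm1, Rsad2, Gbp2 and Cxcl10 and had 29050.5 CPM of interferon-stimulated genes, against 8020.2 CPM in cluster 2 and 9765 CPM in cluster 4. Cluster 5 (10 cells) led with Crip1, Ms4a4c, Ccl2 and H2-Ab1, had a median of 9574 UMIs and consisted of cells with at least 3 UMIs of monocyte genes. Cluster 1 (11 cells) led with Baz2b and Igf1r and had 116795 CPM of chemokines. The clusters were made from these genes, so that their differences are no separate result, and with 23 cells Control was not clustered.

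**Figure D5:**
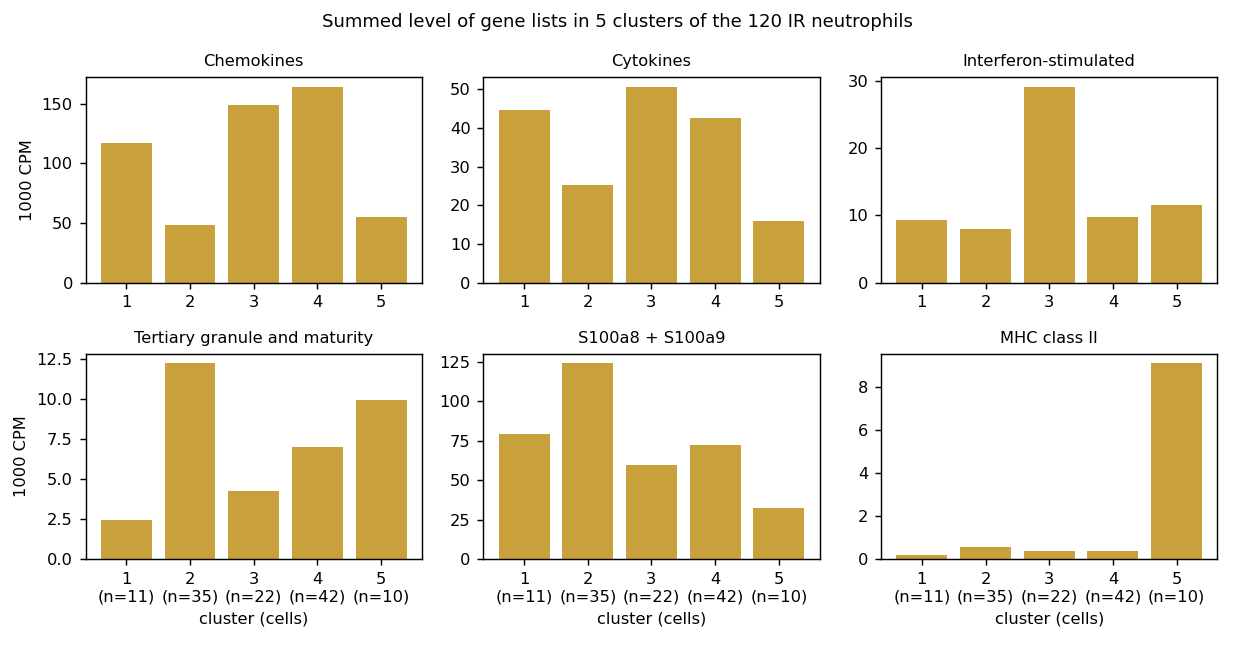
Summed level of 6 gene lists (y axis, in 1000 CPM) in the 5 clusters of the 120 IR neutrophils (x axis, with the number of cells). S100a8 and S100a9 and the tertiary granule list are highest in cluster 2, the interferon-stimulated list in cluster 3, chemokines in cluster 4 and MHC class II in cluster 5.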

How the data were processed

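CD45+ cells of MC38 tumors were profiled with 10x Genomics 3' v3.1 chemistry, 1 library per group. The authors aligned reads to mm10 with Cell Ranger (6.0.1 in the submitters' processing notes, 4 in the matrix header) and deposited unfiltered UMI counts per gene and barcode, with empty droplets included. The 2 libraries had 48593900 and 42406500 UMIs. From these counts barcodes were selected as the text states, summed over the neutrophils of a library and divided by the summed total (CPM). Intervals are 95% exact Poisson, binomial or conditional intervals and cover counting error only. No replicate existed, so no test was run.

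Genes were named by rule: up to 6 per list, the 10 largest log2(CPM + 50) differences in each direction, and the 10 largest neutrophil over monocyte differences with the genes of the selection rule left out, and with ribosomal, mitochondrial, Y-linked and predicted genes left out. A few genes that the rule named are not reported here. The members and gene lists were chosen with earlier results of these data known. Cells were thinned to 500 UMIs with a fixed seed. IR neutrophils were clustered with scanpy 1.11.5 (Leiden, resolution 1), scores for doublets came from Scrublet, and TMM factors from edgeR 4.0.16. Scripts were tested on simulated data. Of the barcodes kept, 6 sequences occurred in both libraries, none among neutrophils.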

Additional observations from a re-analysis of the deposited data

Results flagged for a closer look

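Empty droplets (barcodes of 1 to 50 UMIs) carried neutrophil transcripts at a higher level in IR. S100a8 and S100a9 together stood at 289 CPM in Control (95% interval 261 to 319) and 1053 CPM in IR (1017 to 1090). Cxcl2 stood at 2327 CPM in Control (2246 to 2410) and 3885 CPM in IR (3816 to 3956).

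For 4 gene lists the neutrophils and the monocyte gate of the same libraries moved in opposite directions between Control and IR, each with a counting interval away from no change. The difference between the cell types was not tested, since each had 1 library per group. The interferon gamma list had a log2 ratio of 1.16 in neutrophils and -0.16 in monocytes. The tumor neutrophil list stood at -0.10 and 0.68, and the NADPH oxidase list at -0.52 and 0.13. With TMM factors the tumor neutrophil and NADPH oxidase lists stood at 0.45 and 0.033 in neutrophils, so that their direction turned, and the monocytes were not rescaled. The MHC class II list stood at 0.50 and -0.28, and at -2.05 in neutrophils without the 21 cells that held monocyte RNA.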

How the results depend on the processing

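No paired analysis was possible because each condition had a single library and nothing was tested. Of 228 alternative values for 24 results, 163 stayed within the main counting interval or within 1.5 times the main count, 60 moved outside it and 5 turned the direction of a value whose interval lay away from no change. A further 11 values changed sign in 2 lists whose main interval held no change, 9 of them for adhesion and 2 for the tertiary granule list. The share ratio was 4.79 with every barcode of 3 or more monocyte UMIs left out. With each Control neutrophil left out in turn, chosen after seeing the data, log2 ratios ranged from 0.69 to 1.05 (chemokine), 0.47 to 0.67 (cytokine), 1.54 to 1.71 (interferon) and -0.21 to 0.047 (tumor neutrophil). The share ratio moved to 11.5 with C1q genes at 0, where the chemokine list stood at 0.62, the NF-kB list at 0.20 and the tumor neutrophil list at 0.0037. With TMM factors the log2 ratios were 2.16 (interferon), 1.36 (chemokine), 1.13 (cytokine), 1.16 (glycolysis), 0.93 (NF-kB), 0.77 (suppression), 0.53 (adhesion), 0.45 (tumor neutrophil), 0.41 (tertiary granule) and 0.033 (NADPH oxidase), and 298 genes were higher and 25 lower. With TMM over the measured genes, chosen after seeing the data, they were 1.85 (interferon), 1.04 (chemokine), 0.81 (cytokine), 0.85 (glycolysis), 0.61 (NF-kB), 0.46 (suppression), 0.21 (adhesion), 0.14 (tumor neutrophil) and 0.10 (tertiary granule), with 67 genes lower. Thinned to 500 UMIs they were 1.28 (interferon), 0.83 (cytokine), 0.60 (NF-kB), -0.34 (tertiary granule) and -0.81 (NADPH oxidase), and neutrophils over monocytes 0.97 (interferon), 2.59 (cytokine), 0.51 (suppression) and 1.40 (receptors). As a mean over cells the tertiary granule list stood at -0.34 and cytokines at 0.69, and adhesion at 0.20 with S100a8 and S100a9 at least 5%. Without the 21 cells, an alternative chosen after seeing the data, chemokines stood at 0.98 and cytokines at 0.78, and neutrophils over monocytes at 1.09 (interferon), 1.27 (adhesion), 3.19 (chemokine), 2.68 (cytokine), 0.54 (suppression) and 1.42 (receptors). A stricter monocyte gate gave 0.93 (interferon) and 2.43 (cytokine), and monocytes under 0.2% S100 gave 3.11 (chemokine) and 2.55 (cytokine). A pseudocount of 100 left 94 genes higher and 50 lower, one of 20 left 175 lower, and no CPM minimum left 226 higher. Thinning to 1000 UMIs put 85.5% of IR cells in the interferon range, 59.0% in the granule, 88.9% in the tumor neutrophil and 97.4% in the chemokine range, and limits 1 UMI lower 80.8% in the interferon and 45% in the granule range. The cause of these moves was not tested, except that a scaling shifts every ratio alike. Depth limits the Control values most, at 37407 UMIs.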

Other observations

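Barcodes of 100 to 499 UMIs, below the limit used, numbered 4920 in Control and 814 in IR. Of these, 1 and 8 gave at least 2% of their UMIs to S100a8 and S100a9, and 0 and 3 met the rest of the neutrophil rule. Barcodes with S100a8 and S100a9 under 2% but at least 10 UMIs of Csf3r, Cxcr2, Retnlg and G0s2, within the C1q and Cd3 limits, numbered 2 in Control and 51 in IR, and 28 of the 51 held at least 3 UMIs of the 6 monocyte genes. In IR, 14 further barcodes were kept out by the C1q limit alone, and none in Control. Barcodes kept out by the Cd3 limit alone were not counted.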
